A study of Mus musculus with 10 samples.

Results

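Caveolae are small flask-shaped pits of the plasma membrane, and T-tubules are the inward folds by which muscle cells carry the action potential to their interior. The 9 genes described here build or shape these membranes: the caveolins Cav1, Cav2 and Cav3, the cavins Ptrf, Sdpr, Prkcdbp and Murc, the membrane-bending protein gene Bin1 and the membrane-repair gene Dysf. They were chosen by name, not by their values, and each has a row in the deposited table of 23337 genes. The newer symbols of the cavins are Cavin1 for Ptrf, Cavin2 for Sdpr, Cavin3 for Prkcdbp and Cavin4 for Murc.

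RNA of the right atrium was sequenced from 10 mice, 4 labelled Control and 6 labelled as having TBX5 removed, to ask which transcripts depend on the T-box factor TBX5 in the adult atrium. The labels describe a Cre recombinase that is switched on by tamoxifen and expressed from the ubiquitous R26 promoter, with exon 3 of Tbx5 as the excised part, so that any cell type of the atrium could have lost the exon. Tamoxifen was injected into the peritoneum at 0.167 mg a day for 3 days, and tissue was taken 1 week later. For its left atrial libraries the paper names Tbx5 fl/fl;R26 CreERt2 mutants and R26 CreERt2 controls, while the labels of the right atrial mice give the genotype only as Control or as R26Cre driven TBX5 removal (TBX5 KO in the sample titles), called Tbx5 mutant here, the strain as a mix, the age as 8 to 10 weeks (6 to 8 weeks in the protocol text) and the sex as 2 male and 2 female controls and 3 male and 3 female mutants.

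Caveolin proteins form the coat of a caveola together with cavins. Cav1 and Cav2 are abundant in endothelial cells, fibroblasts, smooth muscle and adipocytes, whereas Cav3 and Murc are the caveolin and the cavin of striated muscle. Cav3 and Bin1 also take part in building T-tubules, which are sparse in the atrial myocytes of small rodents, and Dysf is a calcium-binding protein of the sarcolemma and T-tubules that helps reseal torn membrane.

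Promoter sequences are shown for the pair of neighbouring caveolins of non-muscle cells, Cav2 and Cav1, and for the caveolin and cavin of muscle, Cav3 and Murc. The ratio of reads within each pair passed an adjusted p of 0.05 in the exact permutation tests given below. For Murc to Cav3 the groups overlapped and the call was lost in most alternatives. The ratio of Sdpr to Cav1 also passed, but the Sdpr promoter is not printed. Each window is the 250 bases before the annotated start in the RefSeq annotation of GRCm38.p6, on the forward strand. Capitals mark matches, on either strand, to the letters GGTGTNA (the core of T-box sites), CANNTG (the E-box of myogenic factors), CATTCC (the M-CAT site), GGGCGG (the GC box) and TATAAA (the box bound by the TATA-binding protein), and no 2 matches overlap in these windows.
Cav1 (chr6:17306085-17306334): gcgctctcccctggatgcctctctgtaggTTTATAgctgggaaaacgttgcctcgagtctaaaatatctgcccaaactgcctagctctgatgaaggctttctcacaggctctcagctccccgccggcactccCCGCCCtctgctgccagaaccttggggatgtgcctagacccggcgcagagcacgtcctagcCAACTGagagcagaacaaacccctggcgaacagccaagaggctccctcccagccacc
Cav2 (chr6:17280935-17281184): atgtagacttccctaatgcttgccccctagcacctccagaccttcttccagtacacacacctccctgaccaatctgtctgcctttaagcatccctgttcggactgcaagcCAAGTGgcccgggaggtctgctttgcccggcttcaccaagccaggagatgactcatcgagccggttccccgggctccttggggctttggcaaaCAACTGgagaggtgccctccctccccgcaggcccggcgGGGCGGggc
Cav3 (chr6:112459255-112459504): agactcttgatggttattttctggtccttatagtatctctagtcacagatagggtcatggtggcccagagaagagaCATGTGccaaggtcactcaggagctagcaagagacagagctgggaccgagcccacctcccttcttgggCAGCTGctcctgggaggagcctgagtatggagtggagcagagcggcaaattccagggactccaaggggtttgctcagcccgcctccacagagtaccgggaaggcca
Murc (chr4:48663264-48663513): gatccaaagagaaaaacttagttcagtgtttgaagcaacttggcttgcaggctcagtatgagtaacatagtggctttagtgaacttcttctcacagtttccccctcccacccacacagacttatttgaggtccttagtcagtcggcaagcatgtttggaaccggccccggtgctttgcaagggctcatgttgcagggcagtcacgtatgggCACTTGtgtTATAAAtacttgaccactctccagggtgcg

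The Cav3 window held 2 E-boxes and neither a GC box nor a TATA box, and the Murc window held 1 E-box and 1 TATA box. The Cav1 window held 1 E-box, 1 GC box and 1 match to TATAAA, which lies near the upstream end on the reverse strand. The Cav2 window held 2 E-boxes and 1 GC box. Cav1 has a second annotated start, whose window (chr6:17307390-17307639, not printed) held 1 E-box and neither a GC box nor a TATAAA match. None of the 4 printed windows held the letters of the T-box core or of the M-CAT site. Of 32851 RefSeq promoters of this length, 66.2% held an E-box, 32.7% a GC box, 12.4% a TATA box, 12.6% an M-CAT site and 8.6% the T-box core, so that an E-box match is the usual case. A match of letters is a description of the window and shows no binding.

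Several features of the libraries bear on every value. Total counts ranged from 5703775 to 7095141 per library, and 13084 genes were tested. Tbx5 itself, which checks the labels, had a level of 205 ± 17.8 CPM (counts scaled to library size, SD, 4 mice) with the control label and of 394 ± 83.3 CPM (SD, 6 mice) with the Tbx5 mutant label, against the direction of a knockout (log2 fold change 0.94, SE 0.15, adjusted p = 0.000495 by edgeR's quasi-likelihood test after Benjamini-Hochberg adjustment). The count covers the whole gene and does not separate transcripts with and without exon 3. The 2 controls labelled male had 7850 and 10149 reads of Xist and 0 of the Y-linked Ddx3y, and the 2 labelled female had 5 and 14 reads of Xist with 1124 and 1319 of Ddx3y, so the sex labels of all 4 control mice went against their sex-linked genes. Mutant M3 had 38.9% of its reads on the ribosomal gene Rn45s, against 0.268% to 1.49% in the other libraries. All groups below are therefore groups by label, and results that rest on mutant M3 are also given without it. The labels name each mouse as 1 sample but do not say how the mice were related. The edgeR test sets a group difference against the spread between these libraries, and the permutation test sets it against reassigned group labels. Both treat the libraries as independent.

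Of the 9 genes, 7 were higher in the mice labelled Tbx5 mutant at an adjusted p under 0.05 and 0 were lower, with 0 lower also at an unadjusted p under 0.05 in edgeR and 0 lower at the adjusted threshold in DESeq2 and limma. Among all genes tested, 31.3% passed that threshold, 16.3% as higher and 15.0% as lower. The muscle caveolin Cav3 and the repair gene Dysf had the largest differences of the 9, by 2.09-fold and 1.96-fold, and were the 2 members that also had a fold change over 1.5, a call made for 15.7% of all genes (8.50% higher and 7.16% lower). In 4 of the 9 genes (Cav3, Ptrf, Prkcdbp and Dysf) every mutant library lay above every control library, which held for 11.7% of all genes. The median log2 fold change of the 9 genes was 0.53, beside a median of -0.0050 over all genes tested.

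Cav3 lies at chr6:112459505-112472872 on the forward strand (GENCODE M21, GRCm38). Its level was 30.6 CPM in control M1, 42.0 in M2, 33.9 in F1 and 37.6 in F2. In the 6 mutants it ran from 60.5 CPM in F3 over a median of 74.1 to 94.2 in M2. Every mutant library stood well above the highest control, and mutant M2 stood highest. The log2 fold change was 1.06 (SE 0.13), a fold of 2.09, with an adjusted p of 5.54e-05 by edgeR's quasi-likelihood test after Benjamini-Hochberg adjustment. The two-sided exact permutation test over all 210 assignments of the group labels gave p = 0.00952, the smallest that 4 against 6 libraries allow.

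Cav1, the structural caveolin of endothelial and stromal cells, lies at chr6:17306335-17341452 on the forward strand. It was read at 445 CPM in control M1, 401 in M2, 385 in F1 and 338 in F2. Among the mutants the lowest level was 440.4 CPM in F2, the median 487 and the highest 528 in M3. Control M1 lay above mutant F2, so the groups overlapped, while 5 of the 6 mutants lay above every control. Cav1 was higher by a log2 fold change of 0.30 (SE 0.10, adjusted p = 0.0329 by edgeR's quasi-likelihood test after Benjamini-Hochberg adjustment). The exact permutation test gave p = 0.0190. Without mutant M3 the same fit gave 0.27 with an adjusted p of 0.0592, and the call was also lost without mutant M1 (0.0557) and without control M2 (0.0612), F1 (0.0774) or F2 (0.102).

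Cav2, which forms hetero-oligomers with Cav1, starts upstream of it on the same strand at chr6:17281185-17289115, with 17219 bases between the end of Cav2 and the start of Cav1. Its level was 66.4 CPM in control M1, 71.8 in M2, 60.4 in F1 and 52.9 in F2. Its lowest mutant value was 59.6 CPM in F1, the median 64.5 and the highest 77.3 in M3. The groups lay over each other, and only mutant M3 was above every control. The log2 fold change was 0.078 (SE 0.10), with a 95% interval (normal approximation) from -0.12 to 0.28 and an adjusted p of 0.592 by edgeR's quasi-likelihood test after Benjamini-Hochberg adjustment. With 1 library left out, it ranged from 0.010 (without control F2) to 0.15 (without control M2).

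**Figure D1:**
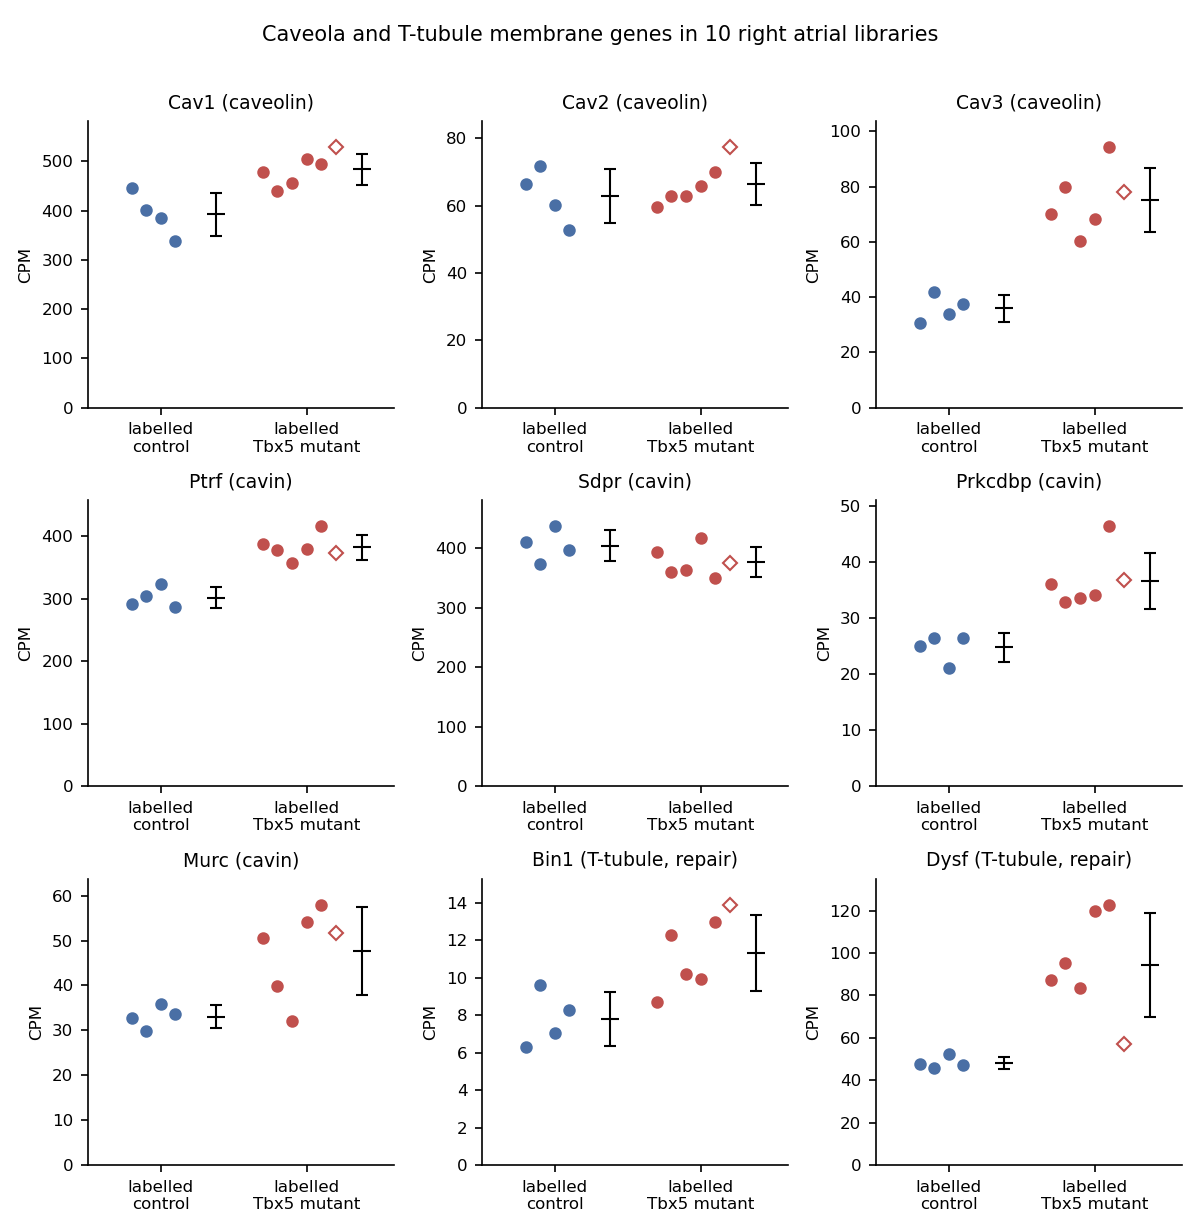
Level of each of the 9 genes in CPM (vertical axis, from 0) in the 4 libraries labelled control (blue) and the 6 labelled Tbx5 mutant (red), 1 point per mouse, with the mean and SD in black beside each group and mutant M3 as an open diamond. The 2 groups stand apart for Cav3, Ptrf, Prkcdbp and Dysf, and they lie over each other for Cav2 and Sdpr.

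Among the cavins, the level of Ptrf, the cavin needed for caveola formation in all cell types, was 291 CPM in control M1, 305 in M2, 324 in F1 and 287 in F2. The gene lies on the reverse strand at chr11:100956733-100970887. In the mutants it ran from 357 CPM in F3 over a median of 379 to 416 in M2. All mutants were higher than all controls, and the spread within each group was narrow, with a coefficient of variation of 5.53% in the controls and 5.14% in the mutants. Ptrf rose by a log2 fold change of 0.34 (SE 0.084), which is 1.27-fold, with an adjusted p of 0.00787 by edgeR's quasi-likelihood test after Benjamini-Hochberg adjustment and an exact permutation p = 0.00952.

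Sdpr, a cavin that lengthens and curves caveolar membrane and is prominent in endothelium, lies at chr1:51289126-51302960 on the forward strand. It had 410.5 CPM in control M1, 374 in M2, 437 in F1 and 396 in F2. The mutants ran from 350.4 CPM in M2 over a median of 369.6 to 417 in M1. No mutant was above the highest control, and the ranges overlapped. The log2 fold change was -0.10 (SE 0.089), with a 95% interval (normal approximation) from -0.28 to 0.07 and an adjusted p of 0.401 by edgeR's quasi-likelihood test after Benjamini-Hochberg adjustment. With 1 library left out, it ranged from -0.14 (without mutant M1) to -0.063 (without control F1).

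Prkcdbp, a cavin that binds protein kinase C delta, was read at 25.0 CPM in control M1, 26.5 in M2, 21.2 in F1 and 26.5 in F2. Its lowest mutant value was 32.9 CPM in F2, the median 35.1 and the highest 46.5 in M2. All mutants were above all controls, with mutant M2 far above the rest. The log2 fold change was 0.56 (SE 0.12), with an adjusted p of 0.00266 by edgeR's quasi-likelihood test after Benjamini-Hochberg adjustment. The gene lies on the reverse strand at chr7:105480083-105482300, and 374 of its exon bases (22.5%) are shared with the opposite-strand gene Gm45667, which has no row in the table. Whether the counting used strand is not given in the sources used here, so reads of the antisense gene cannot be told apart from those of Prkcdbp.

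Murc, the cavin of cardiac and skeletal muscle, lies at chr4:48663514-48673502 on the forward strand. It had 32.7 CPM in control M1, 29.8 in M2, 35.9 in F1 and 33.7 in F2. Among the mutants the lowest level was 32.1 CPM in F3, the median 51.2 and the highest 58.0 in M2. The lowest mutant lay inside the control range, and the other 5 were above every control. Murc rose by a log2 fold change of 0.53 (SE 0.15, adjusted p = 0.0158 by edgeR's quasi-likelihood test after Benjamini-Hochberg adjustment), and the exact permutation test gave p = 0.0381. Without mutants M2 and M3 together, an alternative chosen after the data were seen, the log2 fold change was 0.42 with an adjusted p of 0.0638.

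Dysf, whose product dysferlin gathers at membrane tears, lies at chr6:84008590-84211060 on the forward strand. It was read at 47.4 CPM in control M1, 46.0 in M2, 52.2 in F1 and 47.0 in F2. The mutants ran from 57.2 CPM in M3 over a median of 91.3 to 123 in M2. The controls lay close together (48.2 ± 2.77 CPM, SD, n = 4), while the mutants were spread widely (94.3 ± 24.5 CPM, SD, n = 6), with M3 nearest to the controls and M1 and M2 highest. The log2 fold change was 0.97 (SE 0.17), a fold of 1.96, with an adjusted p of 0.000866 by edgeR's quasi-likelihood test after Benjamini-Hochberg adjustment and an exact permutation p = 0.00952. Without mutant M3 the value was 1.08 with an adjusted p of 8.72e-05. Antisense genes cover 105 and 352 of its exon bases (1.26% and 4.23%).

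Bin1, whose product bends membrane into tubules and anchors calcium channels there, was the lowest of the 9, with 44 to 61 reads in a control library and 51 to 92 in a mutant library. That is 6.29 CPM in control M1, 9.60 in M2, 7.06 in F1 and 8.26 in F2. Among the mutants the lowest level was 8.67 CPM in F1, the median 11.2 and the highest 13.9 in M3. Mutant F1 lay below control M2, and the other 5 mutants were above every control. The log2 fold change was 0.53 (SE 0.17, adjusted p = 0.0273 by edgeR's quasi-likelihood test after Benjamini-Hochberg adjustment), with an exact permutation p = 0.0190. The call was lost without any 1 of 5 libraries: control M1 (adjusted p 0.0830), control F1 (0.0759), mutant F2 (0.0509), mutant M2 (0.0511) or mutant M3 (0.0528).

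Mutant M2 had the highest level of the mutants in 5 of the 9 genes, mutant M3 in 3 and mutant M1 in 1. The 3 labelled male mutants thus held the top place in every gene. The 9 genes were read in the same libraries and are not independent, and no such count was made over all genes. The difference between the groups was tested for its own difference between the labelled sexes. In this interaction 0 of the 9 genes passed, beside 38 of all genes tested (64 without mutant M1 and 26 without mutant F2, with 0 of the 9 in each). At an unadjusted p under 0.05 edgeR's test left 1 of the 9, Murc, with a difference larger by 0.58 on the log2 scale in mice labelled male (SE 0.24, adjusted p = 0.416). With the sex labels of the 4 controls exchanged, to follow their sex-linked genes, 1 of all genes tested passed and 0 of the 9. Cav1 and Cav2 were then the 2 below an unadjusted p of 0.05, with differences larger in males by 0.38 (SE 0.17, adjusted p = 0.548 in edgeR) and 0.49 (SE 0.16, adjusted p = 0.387 in edgeR).

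Levels can be compared between genes only after division by length. Per kb of the longest annotated transcript, Cav1 stood highest in the controls with 143 ± 16.1 CPM per kb (SD, n = 4), followed by Sdpr with 132 ± 8.69 and Ptrf with 86.4 ± 4.78. Cav3 came next with 31.1 ± 4.26 CPM per kb, then Cav2 with 23.0 ± 2.97, Murc with 16.1 ± 1.24 and Prkcdbp with 14.9 ± 1.52. Dysf had 7.08 ± 0.407 and Bin1 2.91 ± 0.539 CPM per kb. The neighbours Cav1 and Sdpr, and Murc and Prkcdbp, overlapped in this order.

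The mutants had the same order of means. Cav1 had 176 ± 11.7 CPM per kb (SD, n = 6), Sdpr 123 ± 8.14, Ptrf 109 ± 5.62 and Cav3 65.0 ± 10.1. There Cav1 no longer overlapped Sdpr, while Sdpr overlapped Ptrf, Cav2 overlapped Murc, and Murc overlapped Prkcdbp. On this scale Cav3 made up 15.9% ± 2.71 of the summed caveolins in the controls and 24.4% ± 2.77 in the mutants. Among the cavins, the share of Sdpr was 53.0% ± 1.38 in the controls and 44.4% ± 2.58 in the mutants, and that of Ptrf 34.6% ± 1.31 and 39.4% ± 1.48. The ranges of these 3 shares did not overlap between the groups, nor did those of Cav1, Cav2 and Prkcdbp, while those of Murc did. Shares within a family are parts of the same whole and move together. The level of Sdpr itself had a log2 fold change of -0.10 (SE 0.089). No such count was made over all genes.

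**Figure D2:**
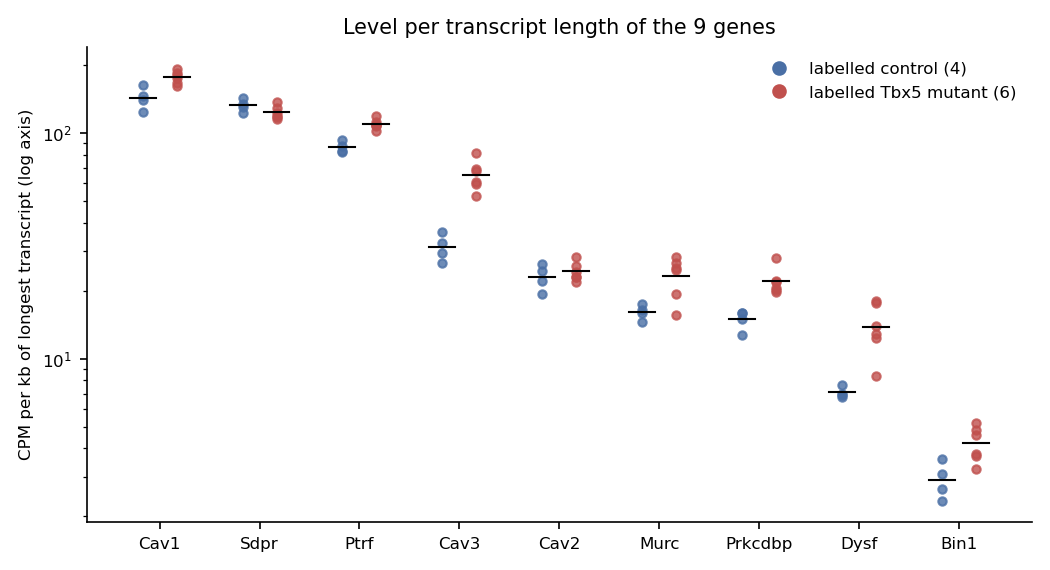
Level per length of the 9 genes, in CPM per kb of the longest transcript on a log axis, with 1 point per library (blue, 4 labelled control; red, 6 labelled Tbx5 mutant) and a black line at each group mean. The genes are ordered by their control mean, from Cav1 at 143 to Bin1 at 2.91 CPM per kb, and Cav3 shows the widest gap between the groups.

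Ratios within a library do not depend on how libraries were scaled. They were not corrected for the trend on transcript length that is described below. Of 10 ratios compared by two-sided exact permutation tests and adjusted together, 6 passed an adjusted p of 0.05. The ratios share Cav1 and Cav3 and are not separate results, and the same count over other gene pairs was not made. Cav3 rose against Cav1: there were 0.0690 to 0.112 reads of Cav3 per read of Cav1 in the controls and 0.133 to 0.190 in the mutants (log2 difference 0.75, adjusted exact p = 0.0190). Sdpr fell against Cav1, from 0.922 to 1.17 reads per read of Cav1 in the controls to 0.707 to 0.828 in the mutants (log2 difference -0.41, adjusted exact p = 0.0190). Cav2, the membrane partner of Cav1, also fell against it (log2 difference -0.22, adjusted exact p = 0.0190), with no overlap of the groups. All 3 genes, Cav1, Cav2 and Sdpr, are most abundant outside muscle.

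The ratio of Ptrf to Cav1 overlapped between the groups (log2 difference 0.034, adjusted exact p = 0.705), and so did that of Prkcdbp to Cav1 (0.25, adjusted exact p = 0.150), which passed without control F2 (0.35, adjusted exact p = 0.0397). Of the ratios to Cav3, that of Bin1 was lower in every mutant than in every control (log2 difference -0.53, adjusted exact p = 0.0190). Murc also fell against Cav3 (-0.55, adjusted exact p = 0.0476), although the groups overlapped and the call was lost in 9 of 12 alternatives, each of them without 1 library. For Dysf against Cav3 the log2 difference was -0.13 (adjusted exact p = 0.705), and mutant M3 lay apart with 0.733 reads of Dysf per read of Cav3. The difference of this ratio turned to 0.019 without that library.

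**Figure D3:**
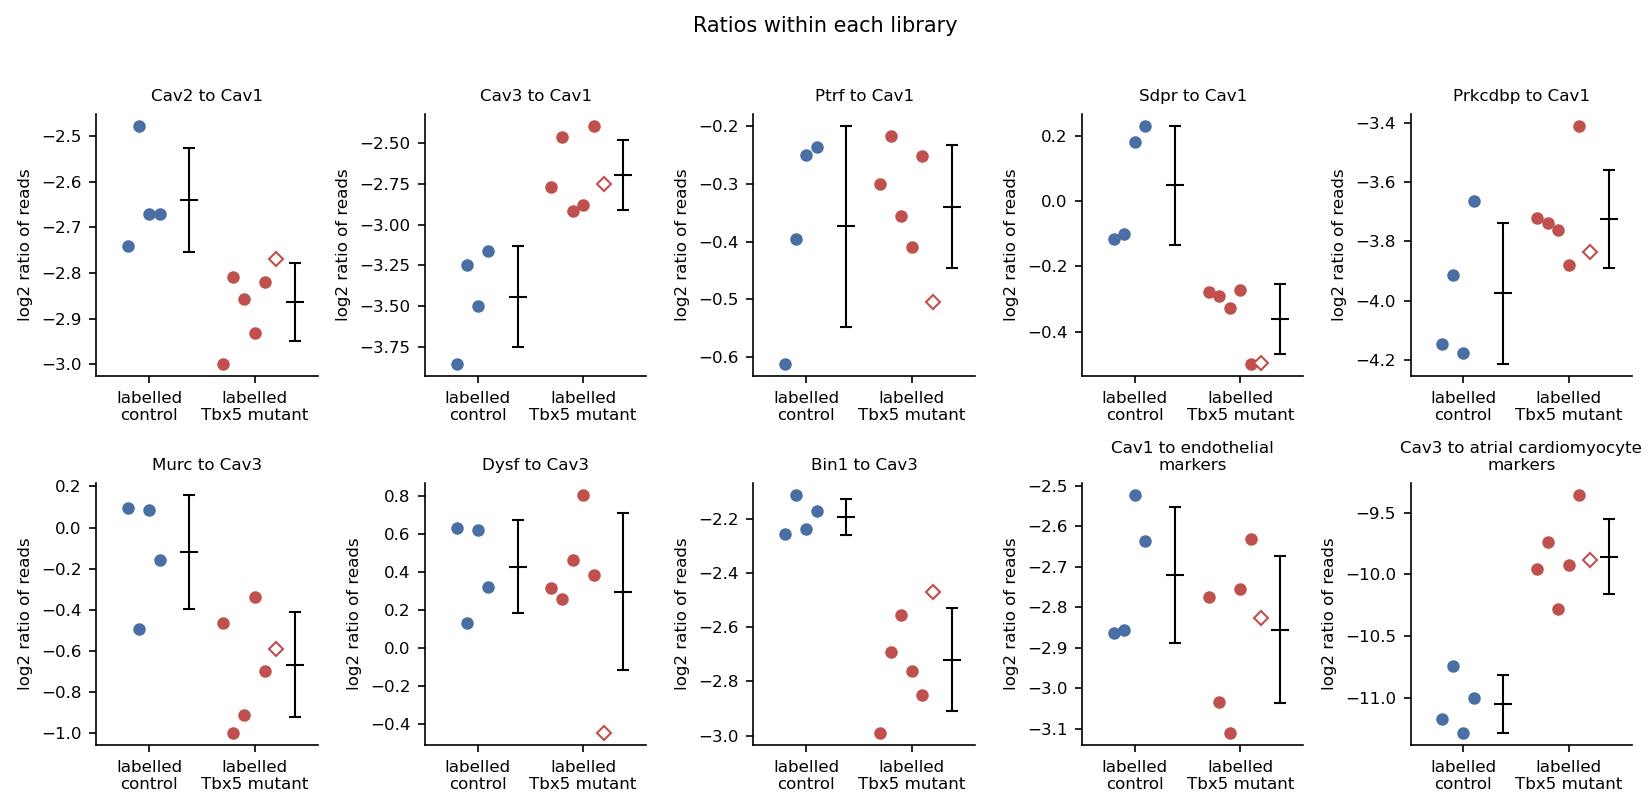
The 10 ratios as log2 of reads of the first gene over reads of the second gene, or over the summed markers, within each library (vertical axes differ between panels and do not start at 0), with the mean and SD in black and mutant M3 as an open diamond. Cav3 to Cav1 lies higher and Cav2 to Cav1, Sdpr to Cav1 and Bin1 to Cav3 lie lower in all 6 mutant libraries than in all 4 control libraries.

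A piece of atrium holds several cell types, and in such bulk RNA fewer cells of a type and less RNA per cell cannot be told apart. The 8 atrial cardiomyocyte markers summed to 70826 to 84561 CPM in the controls and 61804 to 75375 in the mutants, and were high in every library, as the tissue label says. Of the 8, 3 were higher and 3 lower in the mutants. Set against this sum, Cav3 rose in every mutant (log2 difference 1.19, adjusted exact p = 0.0190). The markers within the sum moved unequally, beside a log2 fold change of 1.06 for Cav3. The value was -0.65 for Nppa and -2.73 for Myl7, which are abundant in atrial myocytes. For Tnnt2 and Actc1, sarcomere genes of all cardiomyocytes, it was 1.12 and 0.90. The remaining markers had smaller values: 0.33 for Actn2, 0.099 for Myh6, 0.034 for Tnni3 and -0.44 for Myl4. The 9 endothelial markers summed to 2104 to 3238 CPM in the controls and 3070 to 3949 in the mutants. Of these 9, 3 were higher, 0 lower, and none at 0. Most of the rise of this sum was in Vwf, from 1194 ± 338 to 1941 ± 318 CPM. Emcn and Egfl7 were also called, while Pecam1, Cdh5, Kdr, Tek, Tie1 and Esam were not. The log2 fold changes of the uncalled genes ran from -0.24 (Kdr) to 0.23 (Pecam1). Set against the endothelial sum, Cav1 had a log2 difference of -0.14 and the groups overlapped (adjusted exact p = 0.345), with -0.070 without control F1 (the value nearest to 0 with 1 library left out) and -0.18 without control M1.

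Other marker lists moved with the groups. The 3 ventricular markers summed to 35.0 to 57.7 CPM in the controls and 603 to 844 in the mutants, mostly through Myl3, while Irx4 had at most 3 reads in any library. The 6 smooth muscle and pericyte markers summed to 265 to 320.4 CPM and 339 to 783 (3 of 6 higher). The 5 skeletal muscle markers summed to 2.32 to 3.14 and 6.69 to 11.2 CPM, with 1 of 2 tested higher. That rise was mostly in Acta1 (0.349 ± 0.356 and 6.59 ± 1.68 CPM), while Tnnt3 had 2.21 ± 0.511 and 2.22 ± 0.852 CPM. Myh1, Myh4 and Myog had no more than 3 reads in any library. These 3 sums were higher in every mutant than in every control. The fibroblast sum was 2650.4 to 3303 CPM in the controls and 3241 to 4467 in the mutants (2 of 6 higher, 1 lower), and the leukocyte sum 287 to 482 and 451 to 702 (3 of 4 tested higher). The epicardial sum overlapped widely (288 to 303 and 179 to 343 CPM, 0 of 4 called). The adipocyte sum was 0.470 to 4.14 CPM in the controls and 0 to 20.8 in the mutants, with its highest value in mutant M2. Their part in the levels of the 9 genes was not tested.

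Genes of the same membranes outside the 9 were described by 3 lists. Of 14 caveola accessory genes, 13 were tested, 7 were higher and 0 lower (16.3% and 15.0% of all genes tested), and the median log2 fold change was 0.35. A fold change over 1.5 was found in 2 of the 13, beside 15.7% of all genes tested (8.50% higher and 7.16% lower). They were Popdc3 (0.72, SE 0.13), of the Popeye family of cAMP-binding membrane proteins that interact with Cav3, and Ehd3 (0.62, SE 0.16), an ATPase of membrane trafficking. They went from 20.9 ± 3.12 to 34.7 ± 4.59 CPM and from 9.30 ± 0.730 to 14.2 ± 3.01 CPM.

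Of 12 genes of the T-tubule and dyad list, the junction between T-tubule and sarcoplasmic reticulum, 8 were tested. The list had a median of 0.14, with 1 gene higher (Tcap) and 1 lower (Wasl, an actin regulator, at -0.46, SE 0.12). These 2 of 8 stand beside 31.3% called in either direction among all genes tested. Tcap, whose product telethonin links the Z-disc to the T-tubule, went from 769.7 ± 182 to 1406 ± 232 CPM (log2 fold change 0.87, SE 0.17). Junctophilin 2, the main cardiac tether of the dyad, had 232 ± 29.7 and 251 ± 25.7 CPM (adjusted p = 0.431 by edgeR's quasi-likelihood test after Benjamini-Hochberg adjustment).

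Of 22 membrane repair genes, 20 were tested, 9 were higher and 3 lower, with a median of 0.27. Beyond a fold of 1.5, 5 were higher and 2 lower (8.50% and 7.16% of all genes tested). The 4 largest rises included 3 of the 6 annexins on the list, calcium-binding proteins that seal torn membrane: Anxa2 had a log2 fold change of 0.92 (SE 0.12), its partner S100a10 0.92 (SE 0.17), Anxa5 0.83 (SE 0.11) and Anxa1 0.83 (SE 0.13). Every mutant was above every control in these 4 genes, which were picked for their large rises, and this held for 11.7% of all genes. Anxa7 had 0.21 (adjusted p = 0.0868 by edgeR's quasi-likelihood test after Benjamini-Hochberg adjustment). The fifth largest was Trim72, a muscle ubiquitin ligase that moves vesicles to membrane tears with caveolin 3 and dysferlin, at 129.7 ± 29.2 CPM in the controls and 204 ± 19.2 in the mutants (log2 fold change 0.65, SE 0.13). In the opposite direction, Syt7, a calcium sensor for lysosome exocytosis, fell by 1.05 on the log2 scale (SE 0.14), and Parvb, an adaptor that binds dysferlin, fell by 0.81 (SE 0.17). The third lower gene was Pdcd6ip, a partner of the membrane-cutting ESCRT machinery, which fell by 0.33 (SE 0.083). Of the 41 tested genes of the 3 lists together, 17 were higher and 4 lower, beside 16.3% higher and 15.0% lower among all genes tested.

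**Figure D4:**
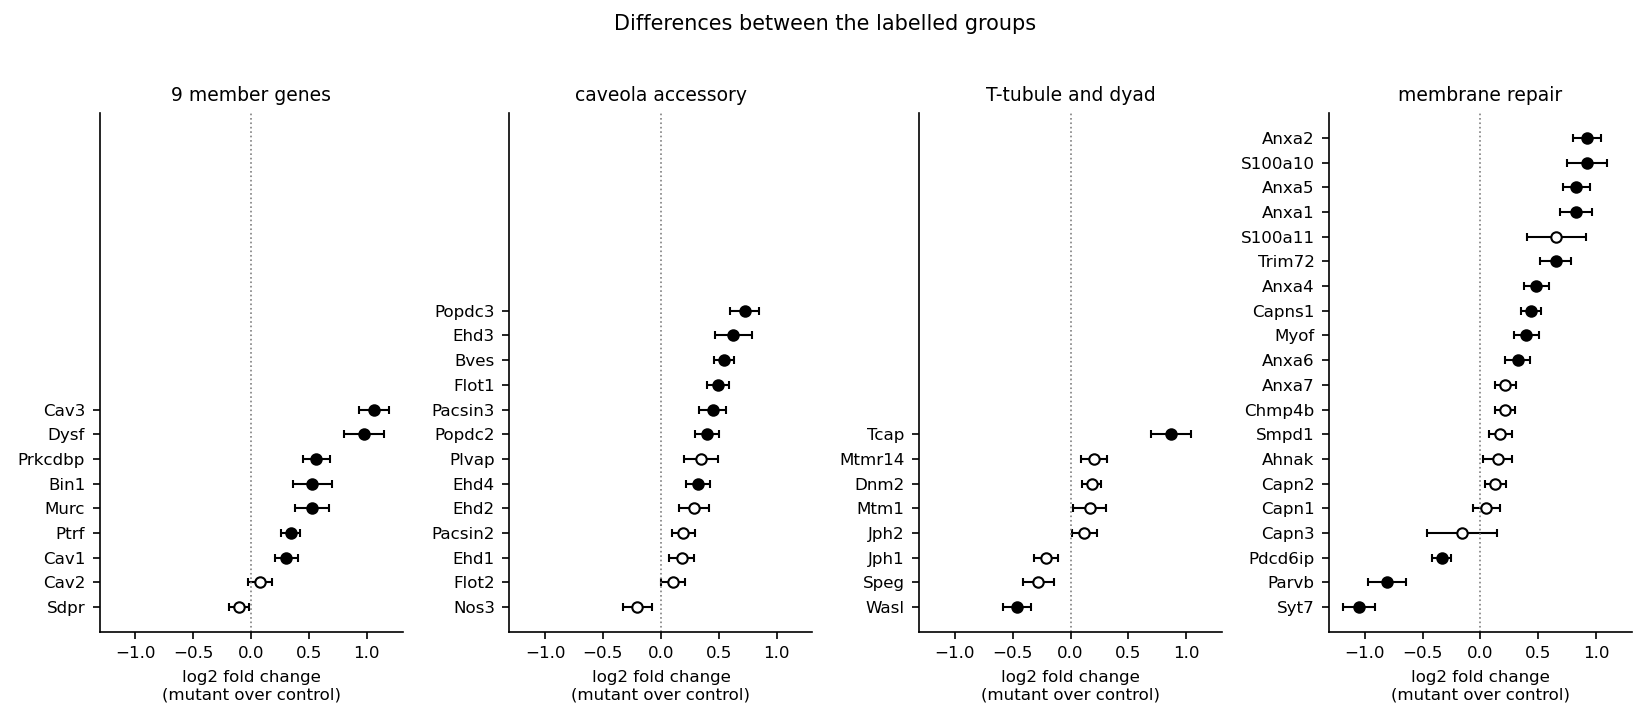
Log2 fold change of the mice labelled Tbx5 mutant over the mice labelled control (horizontal axis, bars ± 1 SE) for the 9 genes and for the tested genes of the 3 lists. Filled points had an adjusted p under 0.05 in edgeR's quasi-likelihood test. Of the 9 genes 7 points are filled, all to the right of 0, and the lists hold 17 filled points to the right and 4 to the left.

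The genes most like Cav1 in their deviations from the group means, over 10 libraries and 9276 genes with a mean of at least 10 CPM, were Coq3 (Pearson r = 0.96), Gimap4 (0.94) and Tlr4 (0.93). The genes most like Cav3 were Ccdc53 (0.97), Aqp1 (0.95) and Bre (0.90). These correlations are a description of 10 libraries that also share depth and tissue makeup. They were picked as the highest among 9276 genes, and such a choice by itself favours high values. Cav3 and Aqp1 moved in opposite directions between the groups (Aqp1 log2 fold change -0.54).

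Across 24 alternatives of the processing, the log2 fold change of Cav3 stayed between 0.85 and 1.15, that of Dysf between 0.89 and 1.30, that of Ptrf between 0.30 and 0.38 and that of Prkcdbp between 0.40 and 0.61, and these 4 genes passed an adjusted p of 0.05 in all 24. Murc passed in 22, Bin1 in 17 and Cav1 in 14. Cav2 and Sdpr passed in none. The 4 genes that passed under every alternative were also the 4 whose groups did not overlap. Both facts rest on the same libraries, so the agreement adds no separate support. Over all genes, which are not independent replicates, the log2 fold changes had a Spearman correlation of -0.32 with transcript length. Removal of each library's trend on length ended the calls of Cav1 (log2 fold change 0.24, adjusted p = 0.0794) and Murc (0.40, adjusted p = 0.0554) in edgeR's quasi-likelihood test after Benjamini-Hochberg adjustment. Cav3 then had 0.85 in place of 1.06 and Dysf 1.16 in place of 0.97, so that Dysf had the larger difference. The ratios were not recomputed with this trend removed.

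**Figure D5:**
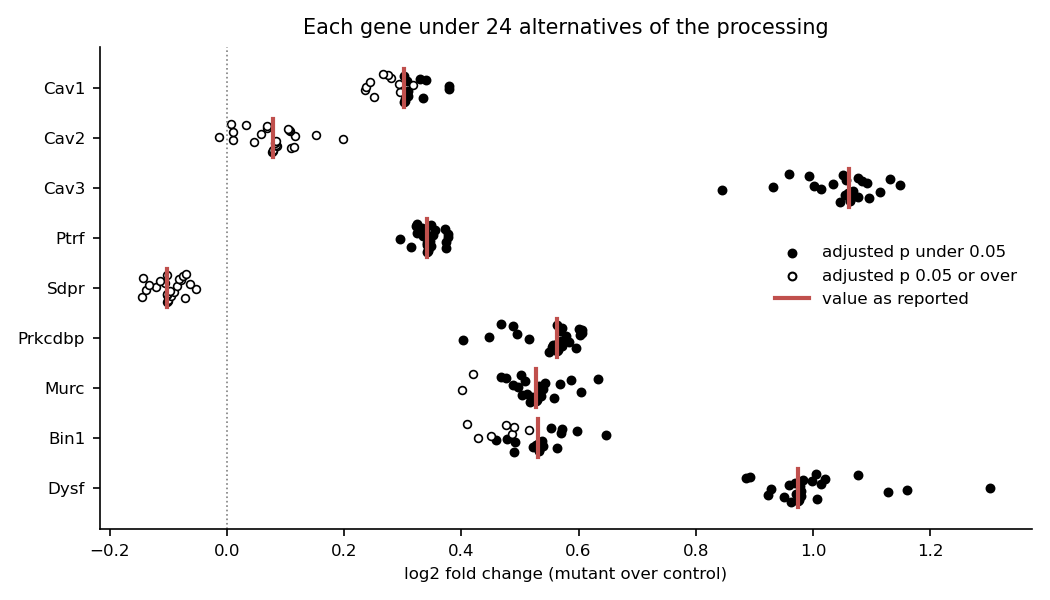
Log2 fold change of each gene (horizontal axis) as reported (red line) and under 24 alternatives (points; filled where the adjusted p was under 0.05). All 24 points are filled for Cav3, Ptrf, Prkcdbp and Dysf, none for Cav2 and Sdpr, and Cav1, Murc and Bin1 hold both kinds.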

How the data were processed

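RNA-seq of the right atrium of 10 mice was analysed from 1 table deposited by the authors. It holds the count of reads per gene and library as whole numbers, and a signal per gene and library that the authors made by dividing counts by a size factor. The submitters' processing notes name FastQC, TopHat2 2.0.11, featureCounts, DESeq2 and the build mm10, with no role or order. The labels name both an mRNA kit and a ribosomal depletion of total RNA, and single-end reads. Other columns hold the authors' own comparison and were not used. No per-sample column belonged to an unlisted sample.

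Counts were filtered with edgeR 4.0.16 (R 4.3.3), scaled by TMM and compared by its quasi-likelihood test on group alone, using all 10 libraries, with a prior count of 0.125 and Benjamini-Hochberg adjustment over the 13084 genes tested. A gene was called at an adjusted p under 0.05 and, separately, also with a fold change over 1.5 and a mean of the deposited signal over 1 in the controls. CPM are counts scaled to the TMM library size. Ratios used reads with 1 count added. The detection floor of 3 counts was 4.23e-05% to 5.26e-05% of a library, for counting error only, since reads carried no molecular identifiers. No 2 libraries agreed within sampling noise (lowest chi-square per degree of freedom 3.78).

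Lengths, positions and overlaps came from GENCODE M21, matched by symbol for 22872 of 23337 genes. Promoters came from the RefSeq annotation of GRCm38.p6 and were used for 7 of the 9 genes. Chromosome 18, which holds Bin1, was left out when the promoters of the 9 genes were taken. No promoter is printed for the other 2, Prkcdbp and Bin1.

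All 9 genes were described in full. From the 3 lists, genes past both thresholds were named, at most 4 per list and direction, with Jph2, Wasl, Trim72 and Pdcd6ip added after their values were seen, and for Cav1 and Cav3 the 3 genes most alike. Marker lists were given by count and sum. The genes, lists and tests were chosen with earlier results of these data known. Alternatives were a prior count of 5, no filter but a mean count over 0, a mean count of at least 50, upper-quartile scaling, quantile normalization with limma 3.58.1, DESeq2 1.42.0, limma without a trend, labelled sex as covariate, a replicate block, counts without Rn45s, removal of trends on transcript length or GC content (lowess, span 0.4), an adjusted p under 0.01, a fold change over 2, and each library left out in turn. Leaving out mutants M2 and M3 together was added after the data were seen. The fits were checked on simulated counts.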

Additional observations from a re-analysis of the deposited data

Results flagged for a closer look

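In 76 groups of 4 or 6 libraries, 4 had 1 library apart from the rest by Dixon's test at the 95% level, where chance flags about 1 in 20 (3.8 groups). Prkcdbp stood at 46.5 CPM in mutant M2, against 32.9 to 36.8 in the other mutants. The log2 ratio of Prkcdbp to Cav1 in the same library was -3.41, against -3.88 to -3.72. The adipocyte markers summed to 20.8 CPM in mutant M2, against 0 to 2.51 in the other mutants. Rn45s took 38.9% of the counts in mutant M3, against 0.268% to 0.582%. Without mutants M2 and M3 together, Prkcdbp had a log2 fold change of 0.47 (adjusted p = 0.00542 by edgeR's quasi-likelihood test after Benjamini-Hochberg adjustment). With Rn45s removed from the counts of all libraries, the same 7 of the 9 genes were called, with log2 fold changes from 0.31 (Cav1) to 1.07 (Cav3). The part of the adipocyte markers in the levels of the 9 genes was not tested.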

How the results depend on the processing

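The direction of the 7 called genes was the same in all 24 alternatives each. Cav1 lost its call under quantile normalization with limma (log2 fold change 0.25), the length correction (0.24) and without mutants M2 and M3 (0.27), and ranged from 0.24 to 0.38 with 1 library left out. Murc lost it under the length correction (0.40) and without mutants M2 and M3 (0.42). Bin1 lost it without mutants M2 and M3 (0.41), and ranged from 0.45 to 0.65 with 1 library left out. Without mutants M2 and M3, or at an adjusted p under 0.01, 4 of the 9 genes were called in place of 7. The 2 genes with a fold change over 1.5 became 1 with a fold change over 2, and 2 to 4 with 1 library left out (4 without control M2, mutant F2 or mutant F3). With 1 library left out, the log2 difference in the ratio of Ptrf to Cav1 ranged from -0.045 (without control M1) to 0.080, and that of Dysf to Cav3 from -0.23 to 0.019 (without mutant M3), none called. The cause was not tested.

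The replicate numbers did not pair the libraries: deviations of the 4 same-numbered pairs correlated between -0.047 and 0.036. With a replicate block, to which mutants F3 and M3 add nothing, Cav1 had a log2 fold change of 0.29 (adjusted p = 0.0663, edgeR), and with the block and the length correction Cav1 had 0.24, Bin1 0.43 and Cav2 -0.013, none called. The block called 6 of the 9 genes and 19 in place of 21 of the 3 lists. Bin1 had the fewest reads, 44 to 92 per library, and how depth limits its call was not tested.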
